A study of Mus musculus with 2 samples.

Results

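The genes described here code for the chains of the collagens. They are the rows of the gene list whose symbol is Col, a type number, the letter a and a chain number, without Col17a1, and 43 of the 32285 genes in the files meet that rule. By protein class they comprise 11 fibrillar, 9 network and 9 FACIT chains (fibril-associated collagens), 6 beaded filament chains, 2 multiplexins, 1 anchoring fibril chain, 3 membrane chains and 2 others. Levels were followed across fibroblast subtypes, pericytes, endothelium and keratinocytes of mouse skin tumours, in 2 single-cell RNA sequencing libraries. Ctrl-D is labelled Eed flox/flox and was given ethanol and DMBA, a carcinogen. Eed iKO-D is labelled K14CrERT2;Eed flox/flox, a tamoxifen-inducible Cre under the keratin 14 promoter, and was given hydroxyl-tamoxifen and DMBA. Mice of both groups were 5 months old when dorsal skin tumours were taken. Tamoxifen was painted daily on the back, over 4 days from postnatal day 50, and DMBA each week over a period of at most 20 weeks. Both groups carried floxed Eed and received DMBA, so neither is untreated skin. Genotype and tamoxifen differ together between the libraries and cannot be told apart, and the Cre is driven in keratin 14-expressing epithelium, not in the stroma that makes most collagen. How many animals or tumours went into each library is not given in the sources used here.

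Collagens are triple helices of 3 chains that are wound in the endoplasmic reticulum, secreted and assembled outside the cell. Fibrillar chains build the rope-like fibrils of the dermis, type IV chains the sheet of basement membranes, and FACIT chains coat fibrils and tie them to their surroundings. In skin, fibroblasts are the main source of fibrils, vessel walls lay down type IV collagen, and the anchoring fibrils of type VII hold the epidermis to the dermis. Eed belongs to the Polycomb complex that methylates histone H3 and keeps developmental genes silent.

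The labels call the cells epidermal cancer cells, and both libraries also held stroma and immune cells. After filtering there were 7393 Ctrl-D cells with a median of 13037 UMIs (unique molecules counted) and 21484 Eed iKO-D cells with a median of 3191. Fibroblast-like clusters held 249 and 2440 of these cells, pericyte- or smooth muscle-like ones 36 and 436, endothelial-like ones 19 and 452, and keratinocyte-like ones 4805 and 3456. The libraries shared 49 cell barcodes. A level is given as CPM, the UMIs of a gene scaled to 1000000 UMIs of the class in that library. Where values come as a pair, Ctrl-D is first and Eed iKO-D second. The protocol counts 3′ ends, and for that reason the CPM of chains of different transcript length are set side by side. An effect of gene length or of reads in introns on these levels was not tested. No test between the groups could be made, since each group is 1 library. Intervals are exact at 95% and cover counting error only, not the difference between animals, and a ratio is Eed iKO-D over Ctrl-D. A gene was called apart between libraries at 1.5 times or more, given at least 20 UMIs in both libraries together. Eed itself was at 54.0 and 47.1 CPM in keratinocyte-like cells (ratio 0.873, interval 0.841 to 0.906), with 67.3 and 50.9 in basal ones, and at 26.9 and 23.5 CPM in fibroblast-like cells, where the Cre is not driven (ratio 0.873, interval 0.677 to 1.14). Reads come from the 3′ end of the transcript and the floxed part of Eed is not given in the sources used here, so these levels do not check the deletion, and Eed iKO-D stands for the library with that label throughout.

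Fibroblast-like cells held the highest level of most chains. Among the 4 cell classes, 23 of 39 measured members were highest there in Ctrl-D and 24 of 42 in the other library, where 23.6% and 18.2% of all measured genes were. Pericyte- or smooth muscle-like cells were highest for 7 members in each library (22.9% and 24.0% of all genes), among them Col4a1, Col4a2, Col6a3 and Col6a4 in both. Endothelial-like cells were highest for 4 and 3 members (25.3% and 26.2% of all genes), with Col13a1 and Col15a1 in both libraries. Keratinocyte-like cells were highest for 5 and 8 (28.2% and 31.6%), with Col2a1, Col4a6, Col9a3, Col19a1 and Col23a1 in both. Free RNA was taken as the UMIs per cell of neutrophil-like and T cell-like cells pooled. These were 138 and 479 cells in Ctrl-D, and 1131 and 154 in Eed iKO-D. Against free RNA, 27 of 27 members measured in fibroblast-like cells of Ctrl-D stood at least 3 times higher (46.0% of all genes). So did 35 of 37 in those of Eed iKO-D (76.8%), without Col11a2 and Col13a1. In all, 25 members reached 50 CPM in at least 1 of the 4 classes and 18 did not.

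**Figure D1:**
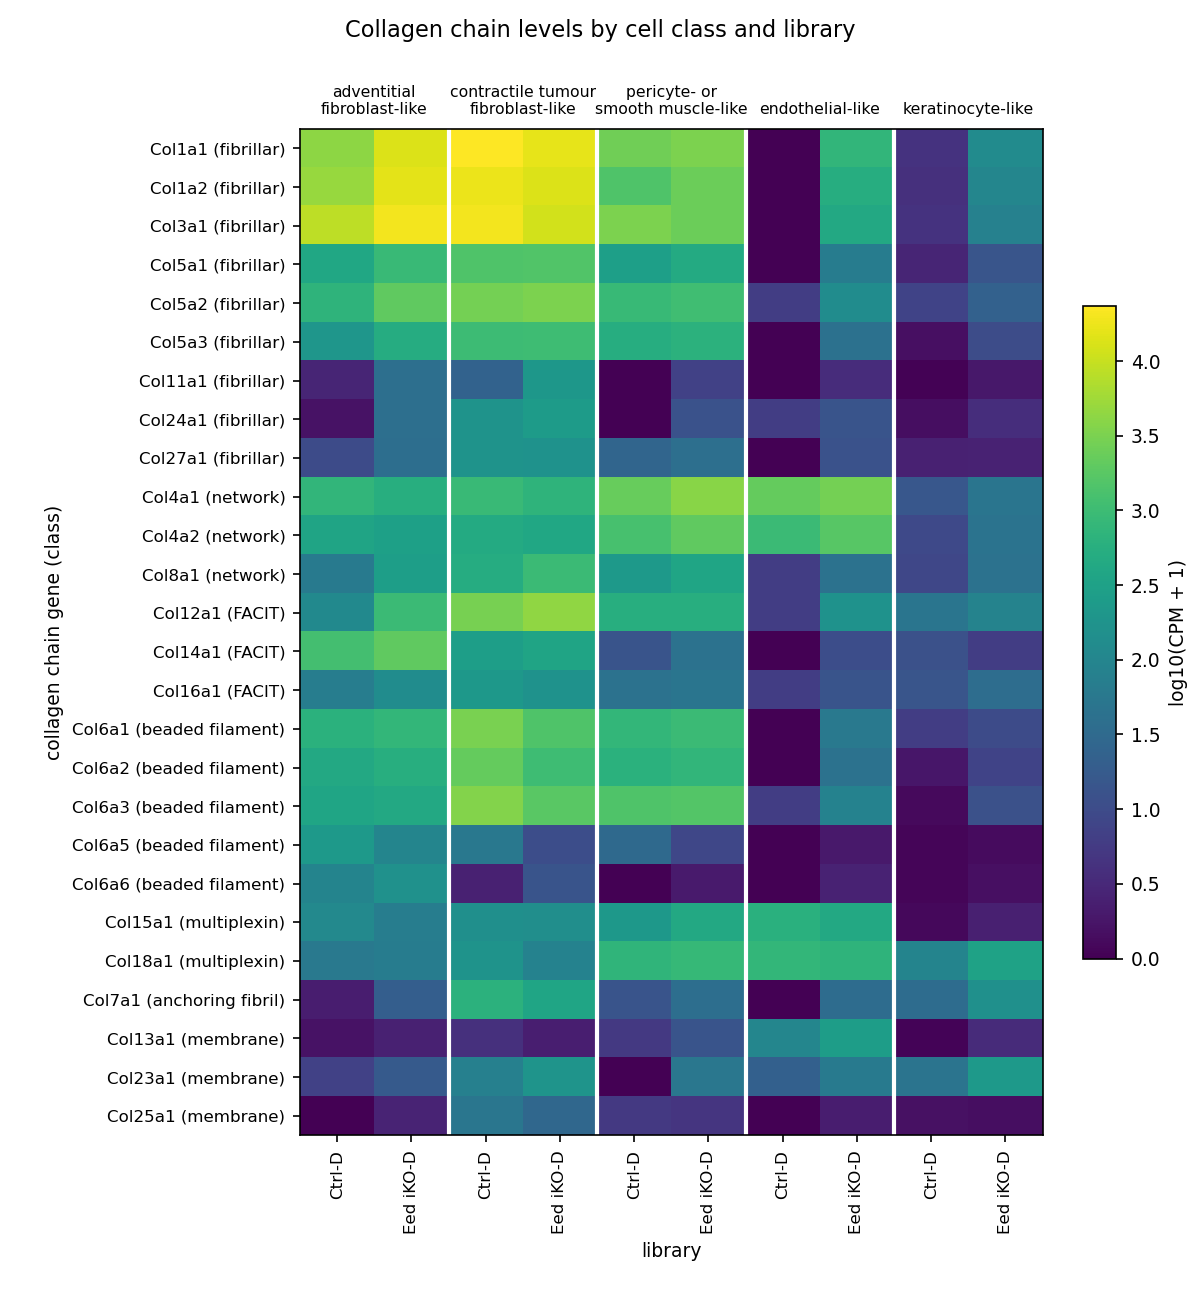
Heat map of log10(CPM + 1) for the collagen chains that reached 50 CPM in at least 1 column. Rows are genes with their protein class, and columns are 5 cell populations in Ctrl-D and Eed iKO-D. The fibrillar rows are brightest in both fibroblast-like clusters, and Col4a1 and Col4a2 are brightest in pericyte- and endothelial-like cells.

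Each class of cell had its own mixture of collagens. Collagen chains made up 3.99% and 5.98% of the UMIs of fibroblast-like cells. In pericyte- or smooth muscle-like cells they made up 1.73% and 2.18%, in endothelial-like cells 0.465% and 0.847%, and in keratinocyte-like cells 0.0345% and 0.142%. Fibrillar chains accounted for 80.9% and 83.0% of the collagen UMIs of fibroblast-like cells, against 52.3% and 47.0% in pericyte- or smooth muscle-like cells. Network chains, nearly all of type IV, accounted for 66.9% and 54.5% of the collagen UMIs of endothelial-like cells. Fibrillar chains were 0.228% of collagen UMIs in the 19 Ctrl-D endothelial-like cells and 23.3% in the 452 of Eed iKO-D. In Eed iKO-D the most abundant fibrillar chains there, Col1a1, Col1a2 and Col3a1, lay within 3 times the level in blood cells, as given below.

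**Figure D2:**
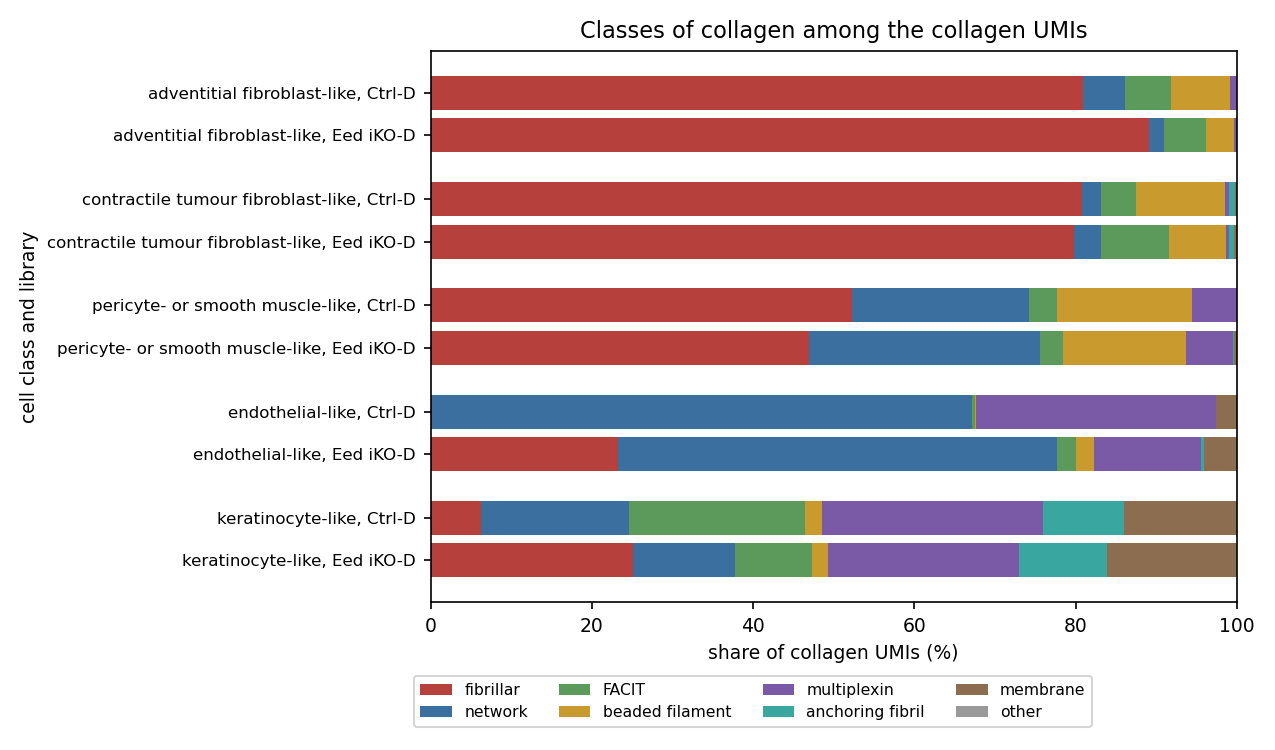
Share of collagen UMIs, in percent, taken by each protein class of collagen, by cell class and library. Bars stack to 100%, and colours are the 8 protein classes. Fibrillar chains fill most of the fibroblast-like bars, network chains 66.9% and 54.5% of the endothelial-like bars, and keratinocyte-like bars are spread over fibrillar, network, FACIT, multiplexin, anchoring fibril and membrane chains.

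Fibroblast-like cells fell into a pair of clusters. The adventitial cluster, led by Clec3b and Pi16, held 205 and 1027 cells. The contractile tumour cluster, with Lrrc15 among its leading genes and Acta2 at 529 and 893 CPM, held 44 and 1413, that is 17.7% and 57.9% of fibroblast-like cells. Neither cluster was formed with collagen genes, which were kept out of the clustering. Median depth was 7235 and 22142 UMIs per cell in the adventitial cluster and 14225 and 28041 in the contractile one. Over all fibroblast-like cells, 16 of 37 members with enough UMIs were at least 1.5 times higher in Eed iKO-D and 4 were lower, against 22.6% and 19.9% of all genes. The members' median log2 ratio was 0.44, beside 0.06 for all genes. With cells that carried 3 or more markers of another lineage removed, which took out 98.6% of the Eed iKO-D cells, 6 were higher and 2 lower.

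The collagen load differed between libraries in opposite directions in the 2 clusters. In adventitial fibroblast-like cells collagen chains were 2.35% and 5.88% of UMIs, a ratio of 2.51. In contractile tumour fibroblast-like cells they were 8.11% and 6.04%, a ratio of 0.744, with 44 cells behind the Ctrl-D value. With 35 Ctrl-D cells of an unnamed sub-cluster added, described with Col11a1, that ratio was 0.894. Different cells also stand behind the 2 values: with fibroblast-like cells clustered on their own, the 2 sub-clusters closest to the contractile marker list held 12 and 548 and 11 and 175 cells, the one led by Brinp3 and Moxd1 held 24 and 158, and the one led by Reg3g held 0 and 423. Cell by cell, the median collagen share was 1.34% of UMIs in adventitial Ctrl-D cells, with quartiles of 0.755% and 2.56%. It was 4.97% in adventitial Eed iKO-D cells, with quartiles of 3.11% and 7.30%. In the contractile cluster the medians were 7.95% and 5.19%. The 2 clusters of Ctrl-D lay far apart in collagen load, and those of Eed iKO-D lay close together. The 8 summed basal keratinocyte markers were also higher in Eed iKO-D adventitial cells, at 615 and 1881 CPM, and the 10 macrophage markers were at 6.07 and 87.6 CPM, with 8 of them at 0 in Ctrl-D. The part of this in the collagen ratios was not tested.

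Fibrillar chains carried the difference in the adventitial cluster. All 9 fibrillar members with enough UMIs there were at least 1.5 times higher in Eed iKO-D, in a count of 20 of 33 members higher and 4 lower. The count lower was 1 when cells with markers of another lineage were removed, which left 20 Eed iKO-D cells. The background shares were 22.1% and 23.0% of all genes, and the median log2 ratio was 1.61 for the fibrillar chains and -0.05 for all genes. Col1a1, the alpha1 chain of type I collagen and the bulk of dermal fibrils, was at 4214 and 13878 CPM, a ratio of 3.29 (interval 3.22 to 3.37). Col1a2, its partner chain, was at 4975 and 15228 CPM. Col3a1, the homotrimer of young and pliable dermis, was at 8505 and 19786 CPM, a ratio of 2.33 (2.29 to 2.37). Type V chains, which nucleate type I fibrils and limit their width, showed the same direction. Col5a1 was at 403 and 902 CPM, Col5a2 at 707 and 1982, and Col5a3 at 196 and 504. With each cell thinned to 1500 UMIs, Col5a2 was seen in 52.8% of adventitial Ctrl-D cells and 87.3% of Eed iKO-D cells, against 79.5% and 99.6% before thinning, and 8 and 3 cells were too shallow to be used.

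The minor fibrillar chains were nearly absent from adventitial Ctrl-D cells. Col11a1, a nucleating chain best known from cartilage, had 3 UMIs there against 905, which is 1.82 and 38.9 CPM and a ratio of 21.4 (7.30 to 104). Col24a1, found in developing bone, had 1 and 893 UMIs, a ratio of 63.3 whose interval runs from 11.3 to 2503. Col27a1 was at 9.10 and 37.6 CPM. In adventitial Eed iKO-D cells these 3 chains stood 25.7, 20.7 and 20.3 times above the UMIs per cell of neutrophil-like and T cell-like cells. Those cells do not make collagen fibrils and were taken to show the free RNA of the suspension. For Col27a1 they were uneven, at 0.136 UMIs per T cell-like and 0.0292 per neutrophil-like cell in Eed iKO-D. In Ctrl-D it had 80 UMIs in T cell-like and 0 in neutrophil-like cells, so its level there may not be free RNA alone.

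In the contractile cluster the main fibrillar chains ran the other way. Col1a1 was at 23455 and 16315 CPM (ratio 0.696, interval 0.685 to 0.707), and Col1a2 at 17146 and 13898. Col3a1 was at 19282 and 11608, a ratio of 0.602 (0.592 to 0.613). The type V chains differed little in the cluster as formed, with ratios of 1.02 for Col5a1, 1.11 for Col5a2 and 1.06 for Col5a3. Col11a1 was at 22.8 and 201 CPM, but its direction rests on which cells are counted. A sub-cluster of an unnamed cluster, with Dcn, Acta2 and Lrrc15 among its leading genes, held 35 Ctrl-D cells with Col11a1 at 1772 CPM. With that sub-cluster added to the contractile cells, Col11a1 was at 579.7 and 201.4 CPM, a ratio of 0.347 (0.319 to 0.379), Col3a1 had a ratio of 0.784, and Col7a1 0.857. The ratios of Col1a1 and Col1a2 were then 0.822 and 0.949, and those of Col5a1, Col5a2 and Col5a3 1.34, 1.38 and 1.46. Over all fibroblast-like cells the same addition put Col11a1 at 215 and 144 CPM. Of 37 members with enough UMIs, 6 were higher and 13 lower, where 19.3% and 21.2% of all genes were, and the intervals of 9 of the 13 left out 1. This count was added after the data were seen, because 44 cells were below the 100 set for counting. Pooled over both clusters, Col1a1 was at 9699 and 15446 CPM and Col3a1 at 11577 and 14523, a ratio of 1.25. The balance of chains also went by cluster. Col3a1 UMIs per Col1a1 UMI were 2.02 and 1.43 in adventitial cells, against 0.822 and 0.712 in contractile ones, and Col1a1 per Col1a2 was 0.847 and 0.911 against 1.37 and 1.17.

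**Figure D3:**
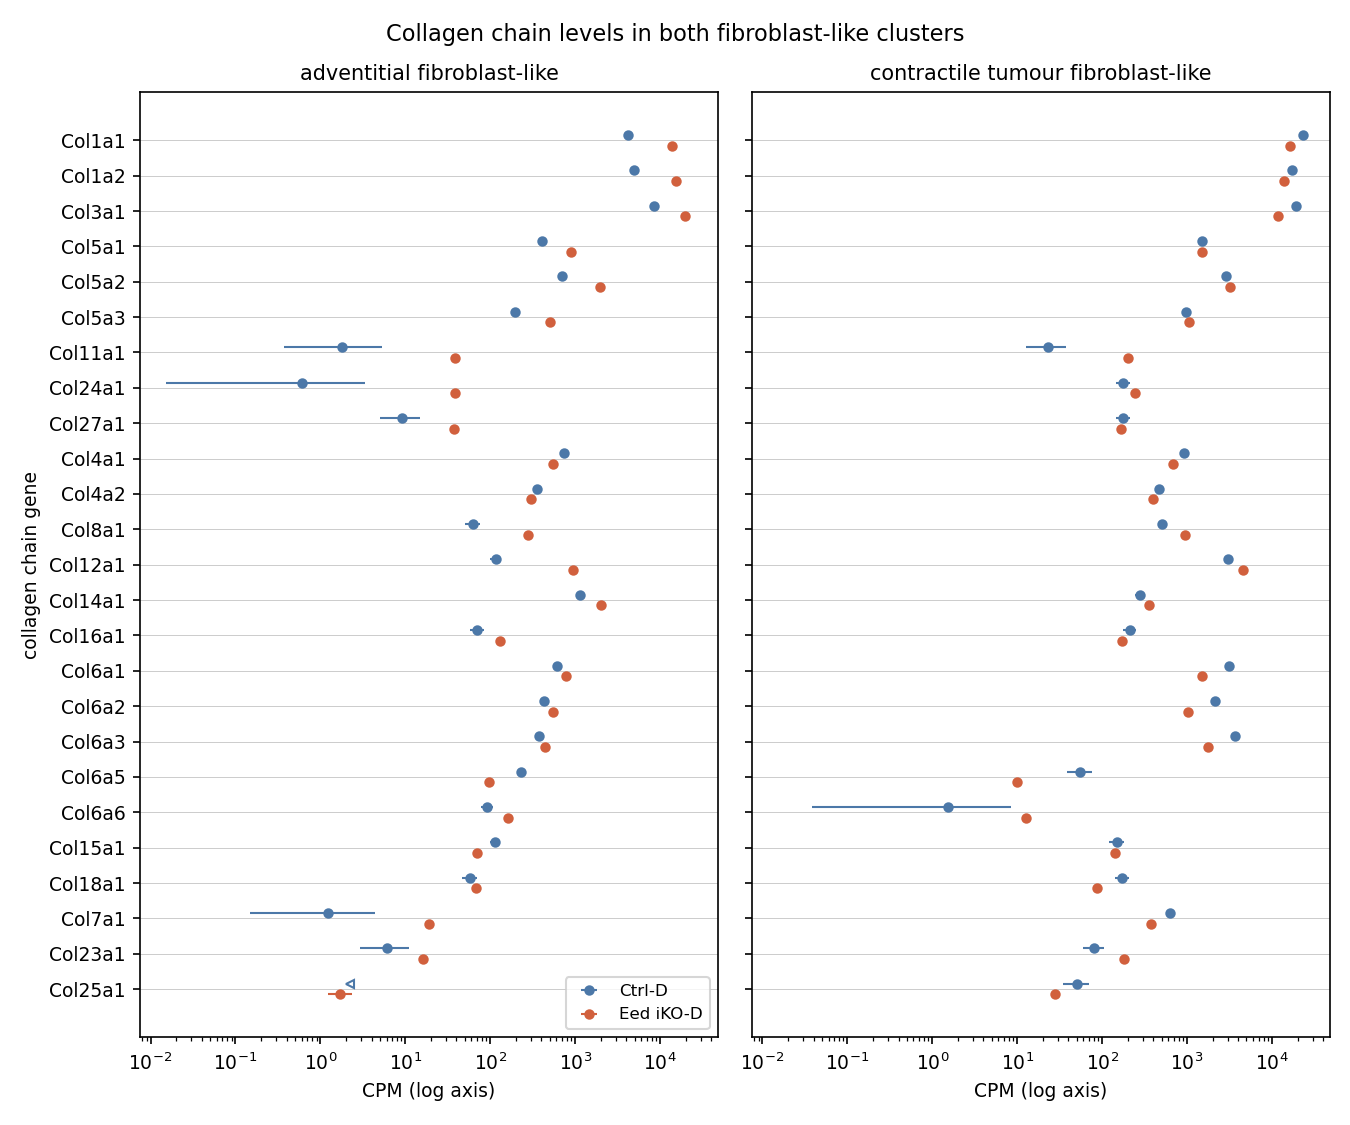
CPM on a log axis of collagen chains that reached 50 CPM in either fibroblast-like cluster, in adventitial cells (left) and contractile tumour cells (right). Points are Ctrl-D and Eed iKO-D, bars are exact 95% Poisson intervals, and an open triangle marks the upper limit where no UMI was seen. For Col1a1 the Eed iKO-D point lies right of Ctrl-D in adventitial cells (13878 against 4214) and left of it in contractile cells (16315 against 23455).

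FACIT chains differed in the cluster where they were highest. Col12a1, which sits on type I fibrils under tension, was at 116 and 935 CPM in adventitial cells, a ratio of 8.07 (7.00 to 9.35). In contractile cells it was at 3034 and 4498 CPM. After thinning, 10.2% of adventitial Ctrl-D cells and 42.7% of Eed iKO-D cells had a Col12a1 UMI, against 23.9% and 83.9% unthinned. Col14a1, the fibril-spacing FACIT of mature dermis, had the reverse preference, with 1140 and 1991 CPM in adventitial and 280 and 360 CPM in contractile cells. Col16a1, which binds fibrils and integrins, was at 70.4 and 132 CPM in adventitial cells and 211 and 169 in contractile ones. The remaining FACIT chains were minor, and Col20a1 was at 6.84 CPM in contractile Eed iKO-D cells.

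The 3 main beaded filament chains of type VI, which form microfilaments around cells, were at a higher level in contractile than in adventitial cells of either library. Col6a1 was at 610 and 782 CPM in adventitial cells and 3094 and 1489 in contractile ones. Col6a2 followed it at 428 and 545 CPM against 2145 and 1012. Col6a3 was at 376 and 437 CPM against 3671 and 1758. Within the contractile cluster the ratios of these 3 chains were 0.481, 0.472 and 0.479, and their intervals all lay between 0.447 and 0.503. With the unnamed sub-cluster described with Col11a1 added, they were 0.564, 0.540 and 0.569, outside that range. The stoichiometry of the first pair hardly moved: there were 1.43 Col6a1 UMIs per Col6a2 UMI in adventitial cells of either library, and 1.44 and 1.47 in contractile cells. Col6a3 per Col6a1 was 0.616 and 0.559 in adventitial, 1.19 and 1.18 in contractile, and 1.83 and 1.65 in pericyte- or smooth muscle-like cells, so this chain tracked the cell class more than the library. Col6a1 and Col6a2 lie on the same chromosome in the same direction, 85161 bases apart.

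The alternative type VI chains behaved otherwise. Col6a5 was at 230 and 96.3 CPM in adventitial cells (ratio 0.419, interval 0.375 to 0.468) and 54.8 and 9.89 in contractile cells, lower in Eed iKO-D in both. In adventitial cells this turned, to a log2 ratio of 0.51, when cells with markers of another lineage were removed, which left 20 Eed iKO-D cells. Col6a6 was at 91.6 and 162 CPM in adventitial cells, and had 1 UMI in contractile Ctrl-D cells against 12.8 CPM in Eed iKO-D. Col6a4 was highest in pericyte- or smooth muscle-like cells, at 8.54 CPM from 2 UMIs and 25.6 CPM. Among adventitial cells thinned to 1500 UMIs, Col6a5 was seen in 20.8% and 10.8%.

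Among network chains of fibroblasts, Col8a1, a short chain of vessel walls and matrix under remodelling, was at 61.9 and 275 CPM in adventitial and 513 and 949 CPM in contractile cells. Col4a1 and Col4a2 were both slightly lower in Eed iKO-D, at ratios of 0.739 and 0.850 in adventitial and 0.748 and 0.846 in contractile cells. Col7a1, the anchoring fibril chain, was a feature of the contractile cluster, at 636 and 374 CPM. In adventitial cells it had 2 UMIs in Ctrl-D, and its 19.1 CPM in Eed iKO-D was 0.431 UMIs per cell beside 0.347 in neutrophil-like and T cell-like cells. Col23a1, a membrane collagen shed from the cell surface, was at 79.1 and 179 CPM in contractile cells. Col15a1 and Col18a1, basement membrane multiplexins, were at 114 and 69.8 CPM and at 57.0 and 67.1 CPM in adventitial cells. Col15a1 turned to a log2 ratio of 0.0883 when cells with markers of another lineage were removed. Col25a1 and Col26a1 were seen mainly in contractile cells, at 50.2 and 27.9 CPM and at 48.7 and 11.0 CPM. Col25a1 in contractile cells turned to a log2 ratio of 1.87 when fibroblast-like cells were clustered again on their own.

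Clustering the fibroblast-like cells on their own, again without collagen genes, showed how far cells of 1 library varied. Of these, 10 sub-clusters held at least 50 Eed iKO-D cells. Across them Col1a1 ran from 9450 to 21216 CPM, 2.25-fold, and Col16a1 2.22-fold. Col12a1 ran from 318 to 6662 CPM, Col14a1 from 89.1 to 2286, Col7a1 from 5.22 to 699 and Col11a1 from 0.994 to 355. Col1a1 was highest in the sub-cluster led by Reg3g and Egfl6, and Col12a1, Col6a1, Col8a1, Col5a2 and Col24a1 were highest in the one led by Brinp3 and Moxd1. Col7a1, Col5a3, Col6a3 and Col15a1 were highest in the sub-cluster led by Mmp13 and Mmp10. Col3a1, Col1a2 and Col14a1 were highest in the sub-cluster led by Rrad, Thbs4 and Cilp, and Col4a1 and Col4a2 in the one led by C7. The lowest Col1a1 was in the sub-cluster led by Grip1, Dsp and Dsg3, where 7 of the 30 leading genes were epithelial markers. Of the 249 fibroblast-like cells of Ctrl-D, 196 fell in a sub-cluster with 8 cells of the other library, and the sub-cluster led by Tnxb held 2 and 530 cells. Library and sub-cluster cannot be told apart there.

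Genes that serve collagen outside the cell or in the endoplasmic reticulum were read from 4 lists, over all fibroblast-like cells. The background is that 22.6% of all genes were higher and 19.9% lower in Eed iKO-D. Contractile tumour cells were 17.7% and 57.9% of these cells, and the part of that mix in the ratios of the lists was not tested. Of 19 genes of chain modification and folding, 6 were higher and 2 lower (31.6% and 10.5%), with a median log2 ratio of 0.30. Plod2, the lysyl hydroxylase of telopeptides, was at 39.5 and 138 CPM (ratio 3.49) and P4ha1, a catalytic subunit of prolyl 4-hydroxylase, at 103 and 259 CPM (ratio 2.51). Ppib, a prolyl isomerase of the folding chain, was at 1017 and 557 CPM, a ratio of 0.548. Colgalt2, a collagen galactosyltransferase, was at 1.73 and 1.01 CPM, also with very few Ctrl-D UMIs. Of 14 genes of propeptide removal and crosslinking, 5 were higher and 3 lower (35.7% and 21.4%). Lox, which oxidises lysines for crosslinks, was at 304 and 847 CPM (ratio 2.78). Tll2 was at 0.434 and 1.33 CPM, with very few UMIs behind the Ctrl-D value. Pcolce2, an enhancer of procollagen C-proteinase, was at 485 and 75.3 CPM, a ratio of 0.155, and Tgm2, a transglutaminase, was at 39.0 and 21.4 CPM.

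Of 11 fibril-binding proteins, 3 were higher and 4 lower (27.3% and 36.4%, beside 22.6% and 19.9% of all genes). Fmod, fibromodulin, was at 6.94 and 41.5 CPM and Thbs1, thrombospondin 1, at 232 and 720 CPM. Dcn, decorin, which coats dermal fibrils, was at 6991 and 3225 CPM (ratio 0.461) and Ogn, osteoglycin, at 905 and 286 CPM. In the adventitial cluster alone the ratio of Dcn was 0.680 while that of Col1a1 was 3.29. Of 9 collagen receptors, 4 were higher and 1 lower (44.4% and 11.1%). With lists this short, none of these shares is read as a difference from all genes. Itga1, which pairs with integrin beta 1 to bind collagen, was at 80.2 and 204 CPM, and Itga2, the partner more typical of epithelium, at 20.0 and 12.4 CPM. Ddr2, a receptor kinase for fibrillar collagen, was at 418 and 298 CPM. Lair1, an inhibitory receptor of leukocytes, was at 0.434 and 0.766 CPM, with very few UMIs behind the Ctrl-D value.

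Basement membrane chains marked the vessels. Both vascular classes had under 100 Ctrl-D cells, and their members were not counted as higher or lower between libraries. In pericyte- or smooth muscle-like cells, 36 and 436, Col4a1 was at 2280 CPM (interval 2091 to 2482) and 3850 CPM. In endothelial-like cells it was at 2155 (1950 to 2375) and 2820 CPM. Col4a2 was at 1251 and 2001 CPM in pericyte- or smooth muscle-like cells and 955 and 1735 in endothelial-like cells. Col18a1, the source of endostatin, was at 726 and 847 CPM in the first and 780 and 689 in the second. Col15a1 was at 209 and 427 CPM in pericyte- or smooth muscle-like cells and 605 and 438 in endothelial-like cells. Col13a1, a membrane collagen of adhesion sites, was at 101 and 274 CPM in endothelial-like cells and at most 12.5 CPM in the other 3 classes.

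Pericyte- or smooth muscle-like cells also held fibrillar and type VI chains. Against free RNA, 15 of 15 measured members of this class stood at least 3 times higher in Ctrl-D and 25 of 28 in the other library, beside 44.1% and 70.3% of all genes. Col6a3 was at 1443 and 1580 CPM, Col6a1 at 790 and 955, and Col5a3 at 521 and 631. Col1a1 was at 2604 and 3200 CPM and Col3a1 at 3224 and 2444. In Eed iKO-D these stood well above the free RNA of the suspension, at 9.66 times for Col1a1 and 49.9 times for Col5a3. The 12 summed fibroblast markers in this class were at 1669 and 2217 CPM, beside 10146 and 7326 in fibroblast-like cells, and their part in the fibrillar signal was not tested. In endothelial-like cells of Ctrl-D Col1a1, Col1a2 and Col3a1 had 0 UMIs, which allows up to 19.6 CPM. In those of Eed iKO-D they were at 757, 518 and 426 CPM. In Ctrl-D 4 of 4 measured members of endothelial-like cells were at least 3 times above the free-RNA level (68.8% of all genes), and with Eed iKO-D 11 of 24 were (72.3%). Col1a1, Col1a2 and Col3a1 were not among the 11, while the minor chains Col5a3, Col24a1 and Col27a1 were, at 3.40, 4.84 and 4.53 times that level.

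Type IV collagen has 6 chains, which are coded by 3 pairs of genes lying head to head. The promoters are shown because the genes of each pair start close to one another. The chains were also not all highest in the same cell class in Ctrl-D. Windows run from 250 bases before to 50 after each start and come from RefSeq, build GRCm38.p6, which held a window for 34 of the 43 members. Capitals mark a CCAAT box or a GC box (GGGCGG) on either strand, and a TATA box, spelt TATAAA, was searched too. The windows of Col4a1 (chr8:11312777-11313076, minus strand) and Col4a2 (chr8:11312555-11312854, plus strand) overlap by 78 bases.
Col4a1: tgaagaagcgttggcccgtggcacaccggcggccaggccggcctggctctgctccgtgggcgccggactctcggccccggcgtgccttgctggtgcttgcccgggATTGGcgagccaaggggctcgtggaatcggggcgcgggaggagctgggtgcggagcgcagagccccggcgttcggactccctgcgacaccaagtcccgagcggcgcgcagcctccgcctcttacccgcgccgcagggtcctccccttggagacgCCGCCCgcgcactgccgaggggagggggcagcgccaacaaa
Col4a2: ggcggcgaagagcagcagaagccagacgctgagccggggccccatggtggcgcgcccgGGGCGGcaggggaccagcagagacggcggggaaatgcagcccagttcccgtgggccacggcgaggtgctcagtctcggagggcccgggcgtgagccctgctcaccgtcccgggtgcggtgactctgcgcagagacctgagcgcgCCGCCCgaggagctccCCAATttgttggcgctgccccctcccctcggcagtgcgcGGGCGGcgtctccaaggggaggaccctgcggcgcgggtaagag
Col4a4: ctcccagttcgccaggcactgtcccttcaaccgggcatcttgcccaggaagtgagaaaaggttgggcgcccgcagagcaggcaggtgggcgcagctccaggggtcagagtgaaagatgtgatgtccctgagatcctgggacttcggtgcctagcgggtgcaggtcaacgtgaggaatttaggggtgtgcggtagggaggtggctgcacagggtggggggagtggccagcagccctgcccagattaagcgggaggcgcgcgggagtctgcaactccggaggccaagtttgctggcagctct
Col4a6: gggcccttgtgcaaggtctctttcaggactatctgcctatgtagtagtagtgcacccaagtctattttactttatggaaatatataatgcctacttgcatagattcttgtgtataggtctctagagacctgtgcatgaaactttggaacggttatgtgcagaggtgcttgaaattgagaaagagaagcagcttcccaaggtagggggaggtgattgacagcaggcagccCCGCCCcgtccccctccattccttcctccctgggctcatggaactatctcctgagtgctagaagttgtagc
Col4a5: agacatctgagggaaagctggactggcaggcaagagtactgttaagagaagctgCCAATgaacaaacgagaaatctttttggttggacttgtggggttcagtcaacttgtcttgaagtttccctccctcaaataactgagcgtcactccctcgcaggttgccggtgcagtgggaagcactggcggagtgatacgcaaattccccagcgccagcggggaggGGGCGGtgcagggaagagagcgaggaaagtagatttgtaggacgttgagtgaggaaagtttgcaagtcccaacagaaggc

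The Col4a4 window is chr1:82586800-82587099 on the minus strand. Those of Col4a6 and Col4a5 are chrX:141474027-141474326 on the minus and chrX:141475169-141475468 on the plus strand. The TATA box letters were in none of the 5 windows. A CCAAT box was in those of Col4a1, Col4a2 and Col4a5, and a GC box in those of Col4a1, Col4a2, Col4a6 and Col4a5. The GC box marked for Col4a1 is the same site as the last one marked for Col4a2, inside the stretch their windows share. Among all 32851 windows of this length, 37.4% held the CCAAT box, 13.6% the TATA box and 35.7% the GC box. Among the 37 windows of collagen chain genes the shares were 32.4%, 10.8% and 62.2%. The capitals overlap no other motif searched. A match describes the letters and not a bound site. In the mm10 annotation Col4a1 spans chr8:11198423-11312826 and Col4a2 chr8:11312805-11449287, so the genes overlap by 22 bases. Col4a4 and Col4a3 on chromosome 1 have starts 71 bases apart, and Col4a6 and Col4a5 on the X chromosome 1308 bases apart. Col4a3 overlaps a gene on the opposite strand at its 3′ end. Whether the counting used strand is not given in the sources used here.

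Among the 4 classes of Ctrl-D, Col4a1, Col4a2 and Col4a5 were highest in pericyte- or smooth muscle-like cells. There Col4a3 and Col4a4 were highest in fibroblast-like and Col4a6 in keratinocyte-like cells. In Eed iKO-D Col4a3, Col4a4, Col4a5 and Col4a6 were all highest in keratinocyte-like cells among the 4 classes. Col4a1 and Col4a2 were vascular, as above. Col4a4 and Col4a3, chains of the glomerular membrane, were highest in adventitial Ctrl-D cells, at 31.5 CPM (52 UMIs) and 18.2 CPM (30 UMIs), and lower in Eed iKO-D, at 13.6 and 1.72 CPM. Of these, Col4a3 had the lower ratio, 0.0945 (interval 0.0574 to 0.157). In keratinocyte-like cells the direction of that pair was opposite, with Col4a4 at 0.866 and 6.98 CPM and Col4a3 at 0.378 and 2.98. Col4a6 and Col4a5, the chains of epidermal and smooth muscle membranes, were at 14.0 and 17.1 CPM in keratinocyte-like cells of Ctrl-D. In Eed iKO-D Col4a6 was at 7.79 CPM, a ratio of 0.555 (0.511 to 0.602), and Col4a5 was at 23.3. The highest single value of Col4a5 was 38.4 CPM, from 9 UMIs in pericyte- or smooth muscle-like cells of Ctrl-D, beside 5.90 CPM in Eed iKO-D. The keratinocyte-like pair was thus at 1.22 Col4a5 UMIs per Col4a6 UMI (1.13 to 1.31) in Ctrl-D, against 2.99 (2.79 to 3.21). Col4a5 without much Col4a6 was also seen in adventitial Eed iKO-D cells, with 368 and 12 UMIs. Col4a1 exceeded Col4a2 in all these classes, at 1.82 and 1.92 UMIs per UMI in pericyte- or smooth muscle-like cells and 1.74 and 1.09 in keratinocyte-like cells.

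**Figure D4:**
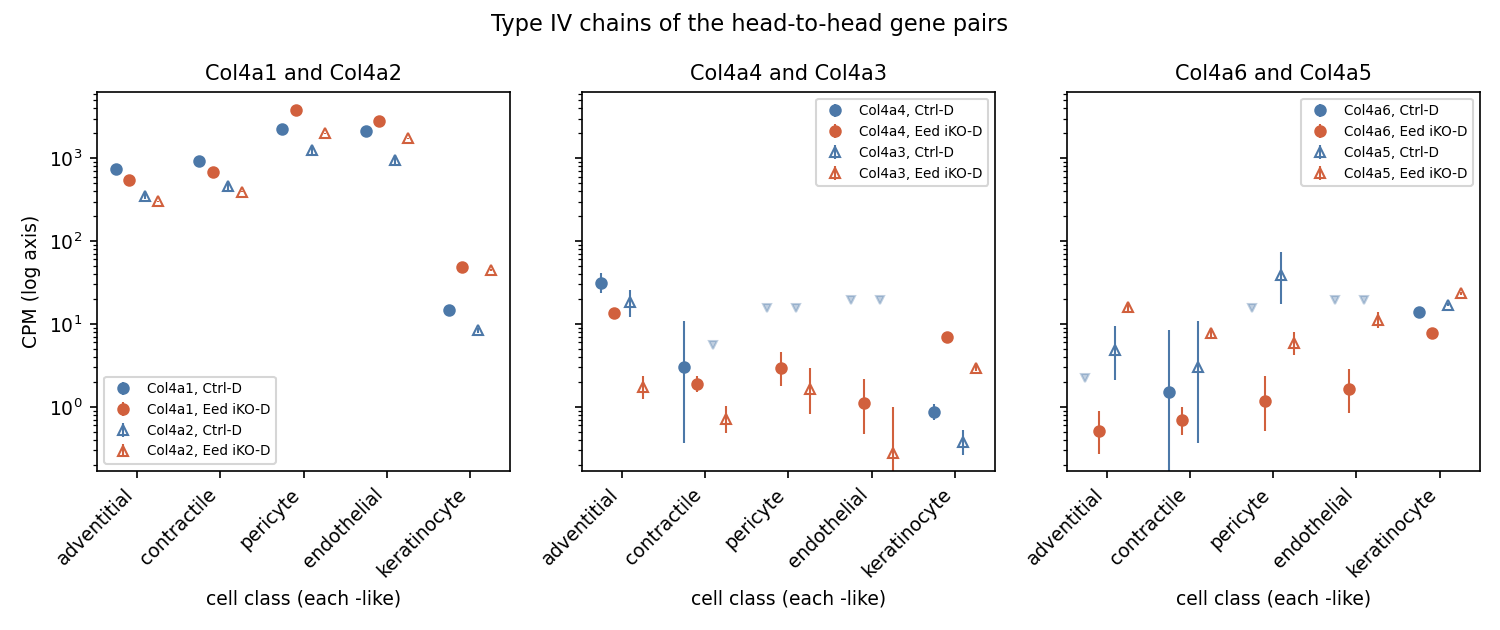
CPM on a log axis of the 6 type IV chains, 1 panel per head-to-head gene pair, in 5 cell populations. Filled circles are the first and open triangles the second gene of a pair, colours are the libraries, bars are exact 95% Poisson intervals, and faint downward triangles are upper limits where no UMI was seen. Col4a1 and Col4a2 are highest in pericyte- and endothelial-like cells, Col4a4 and Col4a3 in adventitial Ctrl-D cells, and Col4a6 in keratinocyte-like cells.

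Keratinocytes carried few collagen chains, and in Eed iKO-D the measured fibrillar ones other than Col2a1 were within 3 times the level of free RNA. Of 41 members with enough UMIs, 32 were higher and 4 lower in Eed iKO-D, where 41.9% and 15.7% of all genes were. All genes had a median log2 ratio of 0.40 and the members 2.16. With free RNA subtracted as CPM, 9 were higher and 15 lower. That takes off the CPM of far shallower cells, for Col1a1 966 CPM in neutrophil-like and 485 in T cell-like cells of Eed iKO-D. Members under the subtracted level are set to 0, so these counts are not read as differences between libraries. Col1a1 was at 0.0631 and 5.10 UMIs per keratinocyte-like cell. Neutrophil-like, T cell-like and macrophage- or monocyte-like cells of Eed iKO-D, which do not make fibrils, had 5.34, 3.77 and 4.05 Col1a1 UMIs per cell, at median depths of 4922, 6336 and 12812 UMIs beside 32478 in keratinocyte-like cells. Col3a1 was at 3.32 UMIs per keratinocyte-like cell and 2.94 over neutrophil-like and T cell-like cells. In macrophage- or monocyte-like cells of Eed iKO-D 0 of 26 measured members stood 3 times above that level, against 46.9% of all genes. In keratinocyte-like cells 16 of 34 and 21 of 40 members did so, beside 63.1% and 81.3% of all genes. Neither share exceeded that of all genes, and none of the chains of types I, III and V did so in Eed iKO-D.

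Chains of the basement membrane zone and the cell surface were among those above the free-RNA level in keratinocyte-like cells. Others were Col5a1, Col5a2, Col14a1, Col6a1 and Col6a2 in Ctrl-D, and Col2a1, Col9a3, Col19a1, Col20a1, Col6a4, Col26a1 and Col28a1 in Eed iKO-D. Col18a1 was the highest, at 94.5 and 333 CPM, a ratio of 3.53 (3.44 to 3.61), and 13.6 UMIs per cell in Eed iKO-D beside 0.311 in neutrophil-like and T cell-like cells. Col23a1 was at 47.1 and 223 CPM, a ratio of 4.73 (4.58 to 4.88). Col7a1 was at 34.7 and 155 CPM, a ratio of 4.47 (4.31 to 4.65), and stood 18.3 times above the free-RNA level in Eed iKO-D. Col12a1 was at 49.6 and 89.0 CPM, and its 3.63 UMIs per cell in Eed iKO-D compare with 0.982 in the blood cells. Col16a1 was at 13.1 and 36.1 CPM and Col8a1 at 7.45 and 43.5. Col4a1 was at 14.5 and 48.6 CPM and Col4a2 at 8.37 and 44.7. These differences lie beyond counting error, and 1 library per group leaves the spread between animals unknown.

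**Figure D5:**
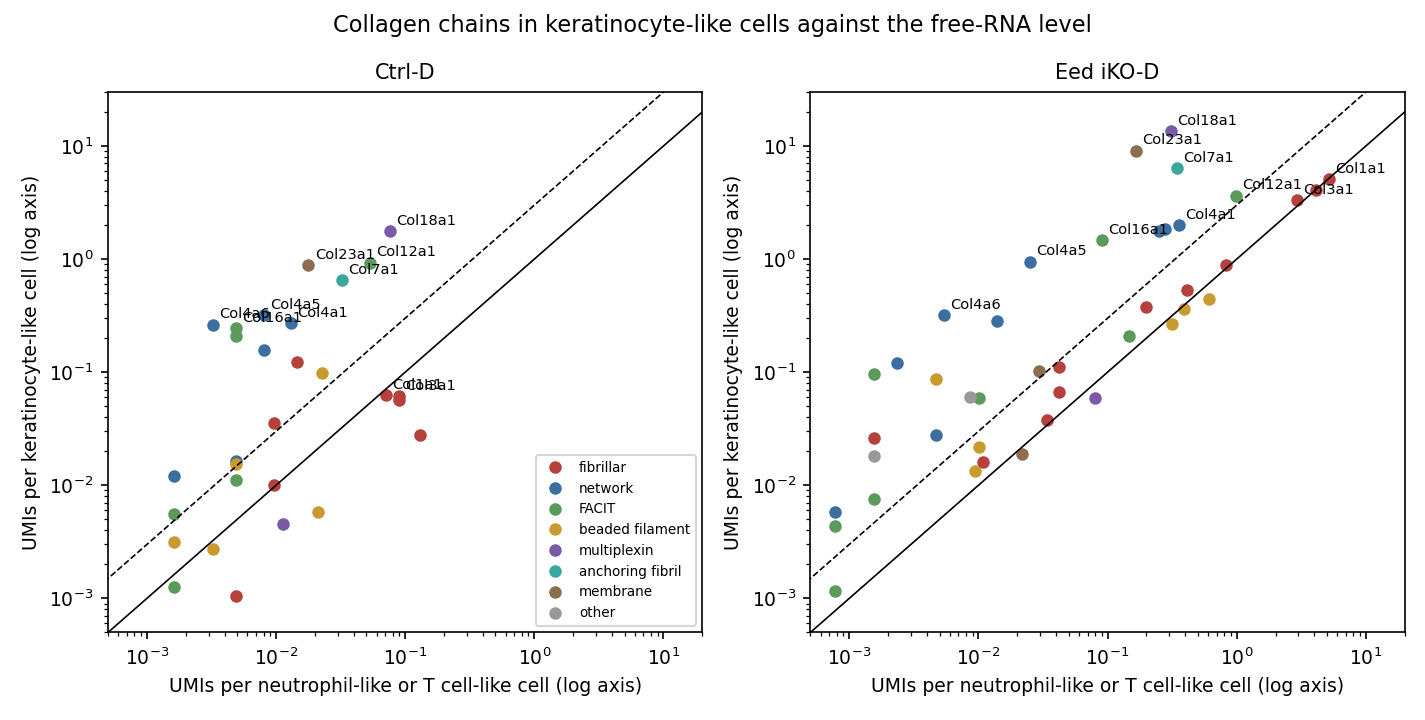
UMIs per keratinocyte-like cell against UMIs per neutrophil-like or T cell-like cell for collagen chains seen in both, on log axes, in Ctrl-D (left) and Eed iKO-D (right). The solid line marks equal values and the dashed line 3 times the blood cell value, and colours are protein classes. Col1a1 lies at the solid line in Eed iKO-D (5.10 against 5.16), and Col18a1 (13.6 against 0.311), Col23a1 and Col7a1 lie above the dashed line.

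Basal and suprabasal keratinocyte-like cells, 1747 and 3058 in Ctrl-D and 2529 and 927 in Eed iKO-D, differed in which chains they held. In both layers the libraries drew mostly on different clusters. Of basal cells, the cluster led by Krt15 held 1439 and 99, and the one led by Lama3 and Hmga2 125 and 1777. Of suprabasal cells, the cluster led by Chil4 held 2175 and 105, and the one led by Sprr1b 204 and 788. The part of this in the differences between libraries was not tested. Basal cells were the site of Col4a1, at 45.9 and 57.4 CPM, against 1.37 and 13.7 in suprabasal cells, where the Eed iKO-D value was 1.17 times the free-RNA level. Pooling both layers gave Col4a1 a ratio of 3.34, and basal cells alone gave 1.25 (1.18 to 1.33). Col4a2 was at 26.1 and 53.5 CPM in basal cells. Col7a1 was at 43.2 and 184 CPM in basal cells and 31.2 and 41.2 in suprabasal ones, and Col18a1 at 142 and 388 and at 74.7 and 114. Col23a1 was at 50.8 and 249 CPM in basal and 45.6 and 120 in suprabasal cells. Col4a6 was lower in Eed iKO-D in both layers, at 29.2 and 9.22 CPM in basal and 7.66 and 2.14 in suprabasal cells. Basal Col4a5 was at 35.1 and 27.0 CPM, a ratio of 0.770, so its pooled ratio of 1.36 did not hold within basal cells. Col14a1 in basal cells was at 36.2 and 3.58 CPM, the latter 1.09 times the free-RNA level.

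The members that reached 50 CPM in none of the 4 classes were Col2a1, Col11a2, Col4a3, Col4a4, Col4a5, Col4a6, Col8a2, Col10a1, Col9a1, Col9a2, Col9a3, Col19a1, Col20a1, Col22a1, Col6a4, Col25a1, Col26a1 and Col28a1. Of these, Col9a1 had 19 UMIs over all cells of both libraries, Col9a2 41, Col10a1 54, Col22a1 67, Col19a1 100, Col2a1 177 and Col11a2 209. Types II, IX and X and the Col11a2 chain belong to cartilage. Col9a3 was at most at 2.90 CPM, in basal keratinocyte-like cells, and Col8a2, the partner of Col8a1, at 15.9 in contractile Eed iKO-D cells. Col10a1 and Col9a3 overlap genes of the opposite strand at their 3′ ends, so their few UMIs are uncertain.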

How the data were processed

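Single-cell 3′ RNA sequencing gave 1 library per group. The authors deposited raw UMI counts per gene and barcode, made with Cell Ranger on mm10. The submitters' processing notes give Cell Ranger 8.0, the labels' protocols 2.1.0 and the file headers 7.1.0. The libraries held 8039 and 22259 barcodes with 120500892 and 289511009 UMIs. Cells with at least 500 genes and at most 15% mitochondrial UMIs were kept. Scrublet marked 129 doublets in Ctrl-D, which were removed, and 0 in Eed iKO-D, a failure of the caller, and doublets were therefore not taken out of that library. Both libraries were clustered together with scanpy 1.11.5 (2000 variable genes, 30 components, 15 neighbours, Leiden resolution 1.0), with the collagen chain genes and 53 companion genes left out of the variable genes. Of 29 clusters, 12 stayed unnamed and were left out of the classes, and the rest were called by marker genes. The scoring rule for names was set after the data were seen. Raw UMIs were summed per class and library, and intervals are exact binomial or Poisson ones at 95%. Ratios to 0 UMIs used 3 UMIs for the whole class in place of 0, and medians of ratios used 0.5 added UMIs. The code was tested on simulated data. Members named in a class reached 50 CPM there in either library, and the others are named for their role. The 2 companion genes with the lowest and highest ratio are named per list. The members and lists were chosen with earlier results of these data known. No test between groups was possible with 1 library each. Alternatives changed the cell filter, doublets, clustering, the cells counted as fibroblast-like, free RNA, scaling and thresholds. A result from another sub-cluster of an unnamed cluster is not reported here.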

Additional observations from a re-analysis of the deposited data

Results flagged for a closer look

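The fibroblast-like clusters went opposite ways between the libraries. The ratio of summed collagen CPM, Eed iKO-D over Ctrl-D, was 2.51 in adventitial and 0.744 in contractile tumour cells, the latter from 44 Ctrl-D cells and 0.894 with 35 cells of an unnamed sub-cluster added. Col3a1 had ratios of 2.33 and 0.602 in the same order, the second 0.784 with those cells. Col7a1 had 15.7 and 0.589 (0.857 with those cells), with 2 UMIs behind the adventitial Ctrl-D value. In adventitial Eed iKO-D cells Col7a1 was under 3 times the free-RNA level in UMIs per cell. The part of free RNA in its ratio was not tested. With those cells added, neither Col3a1 nor Col7a1 was lower in contractile cells by the fold set for calling a gene apart. Col13a1 had 2.48 (interval 0.417 to 101) and 0.423 (0.111 to 3.58), with 1 and 2 Ctrl-D UMIs, so its sides are not separated by counting error. With 1 library per group the difference between clusters was not tested.

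An unnamed cluster of 95 Ctrl-D and 22 Eed iKO-D cells, which entered no comparison, was clustered again on its own. Its sub-cluster with Igfbp2, Mfap5, Dcn, Acta2 and Lrrc15 among its leading genes held 35 Ctrl-D cells with Col11a1 at 1772 CPM (1626 to 1927), beside 22.8 CPM in contractile Ctrl-D cells. Lrrc15 is also among the leading genes of the contractile cluster, and with these cells added to it Col11a1 was lower in Eed iKO-D, with a ratio of 0.347 in place of 8.82.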

How the results depend on the processing

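The ratio of summed collagen CPM in adventitial cells, 2.51, was 2.22 with at least 1000 genes and at most 10% mitochondrial UMIs, 2.44 without cells carrying 3 or more markers of another lineage, 2.58 with collagen genes allowed in clustering and 2.41 at resolution 0.5. It was 2.82 as a mean over cells, 2.39 and 2.48 with free RNA subtracted as CPM and per cell, 2.59 centred on the median gene, 3.12 with fibroblast-like cells clustered alone and 2.56 without sub-clusters of other lineages. In the same order where run, the ratio over all fibroblast-like cells was 1.31 without marker-carrying cells, 1.51 at resolution 0.5, 1.84 as a mean over cells, 1.43 and 1.48 with free RNA subtracted, 1.44 centred and 1.54 without those sub-clusters. It was 1.60 with Ctrl-D doublets kept and 1.53 without mitochondrial, ribosomal and Gm42418 UMIs. Removing marker-carrying cells, 98.6% of the Eed iKO-D fibroblast-like cells, left 6 fibroblast-like members higher and 2 lower, and 1 adventitial member lower. It also turned the log2 ratio of Col6a5 to 0.0625 over all fibroblast-like cells and 0.51 in adventitial cells, and that of Col15a1 in adventitial cells to 0.0883. Col25a1 in contractile cells turned to 1.87 with fibroblast-like cells clustered alone. With the unnamed sub-cluster led by Igfbp2, Dcn, Acta2 and Lrrc15 added, chosen after seeing the data, the log2 ratio of Col11a1 turned to -0.58 over all fibroblast-like cells and -1.53 in contractile cells. Free RNA subtracted per cell gave 7 fibroblast-like and 8 keratinocyte-like members lower. Subtracted as CPM, it gave 9 keratinocyte-like members higher and 15 lower. Subtraction as CPM takes more UMIs from keratinocyte-like cells, which are deeper than neutrophil-like and T cell-like cells, and is not read as a difference between libraries. Keratinocyte-like members lower were 2 with the stricter cell filter, 2 with at least 100 UMIs and 1 at 2 times apart. Folding genes lower were 1 with at least 100 UMIs. The cause of these shifts was not tested. Of 944 single ratios under alternatives, 882 kept their direction. Adventitial cells with Ctrl-D doublets kept were not run, as no cluster took that name. No paired analysis was possible because each group has 1 library. The 44, 36 and 19 Ctrl-D contractile, pericyte- or smooth muscle-like and endothelial-like cells limit those values.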
